A study of Mus musculus and Homo sapiens with 90 samples.

Results

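The data describe 6 epithelial keratin genes in HepG2, a human liver cancer cell line. They were chosen by Ensembl gene ID from 58230 Ensembl gene entries: KRT7 (ENSG00000135480.15), KRT8 (ENSG00000170421.12), KRT18 (ENSG00000111057.10), KRT19 (ENSG00000171345.13), KRT20 (ENSG00000171431.3) and KRT23 (ENSG00000108244.16). Of these, 4 passed the expression filter and are among the 15023 genes tested, and KRT7 and KRT20 did not pass. RNA-seq was made from 8 libraries in 4 groups of 2, and the other 82 of the 90 samples of the study are reporter assay libraries that carry no gene expression. All 8 came from HepG2 labelled p53-WT, grown in high-glucose medium with serum and antibiotics, and were collected after 48 h. The first group, titled media, is the control without metabolites, and the headers of its columns read GAM. The other groups received metabolites made by a microbial community in vitro, at 1:32 in the culture medium. That community had been given solvent (titled metabolites), the antimicrobial cyclic peptide wLwKhShK, or the control peptide WlWkHsHK, titled diast. The names of the 2 peptides share their 8 letters and differ in letter case at 7 positions, and the doses given to the community are not in the labels used here. The labels do not say whether the libraries of a group came from separate cultures, and a p-value here reflects only how far these libraries differ, which may be technical. Its measure of spread is drawn in part from the other tested genes.

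Keratins are the intermediate filament proteins of epithelial cells. A filament is built from pairs of a type I and a type II keratin, and a keratin without a partner is usually degraded. Hepatocytes make KRT8 (type II) with KRT18 (type I) as their main pair, and this network protects them against mechanical and toxic stress. KRT7 (type II) and KRT19 (type I) are known from bile duct cells, and KRT20 (type I) from the lining of the gut and from Merkel cells. KRT23 (type I) is known for induction by histone deacetylase inhibitors in cultured cancer cells.

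Library totals ran from 17019364 to 25594588 expected counts. The peptide libraries were the deepest, at 25594588 and 21129823 against at most 20644341 in any other library, and the part of depth in the results was not tested. Levels are given as CPM, the count of a gene relative to the TMM-scaled library total. With this scaling, the median log2 change of all tested genes lay between -0.01 and 0.05 in the 6 comparisons. With library size alone it lay between -0.041 and 0.046. CPM is not divided by gene length, so levels are compared between libraries and not between keratins. In bulk RNA, fewer cells with a transcript and less of it per cell cannot be told apart. The deposited tables pair no other gene ID with a name, so marker genes of hepatocytes, bile duct or gut and other genes of the keratin network were not analysed here.

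KRT8, KRT18 and KRT23 RNA was highest in medium, fell with metabolites of the solvent-treated community, and lay between those levels with metabolites of the peptide-treated community. KRT19 moved within a narrow range, and KRT7 and KRT20 were close to undetected. The summed CPM of the 6 keratins was 2884 and 2764 in the media libraries, 1450 and 1490 in the metabolites libraries, 2023 in each peptide library, and 1464 and 1577 in the diast libraries. Thus the media libraries were highest, the peptide libraries came next, and the metabolites and diast libraries overlapped.

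**Figure D1:**
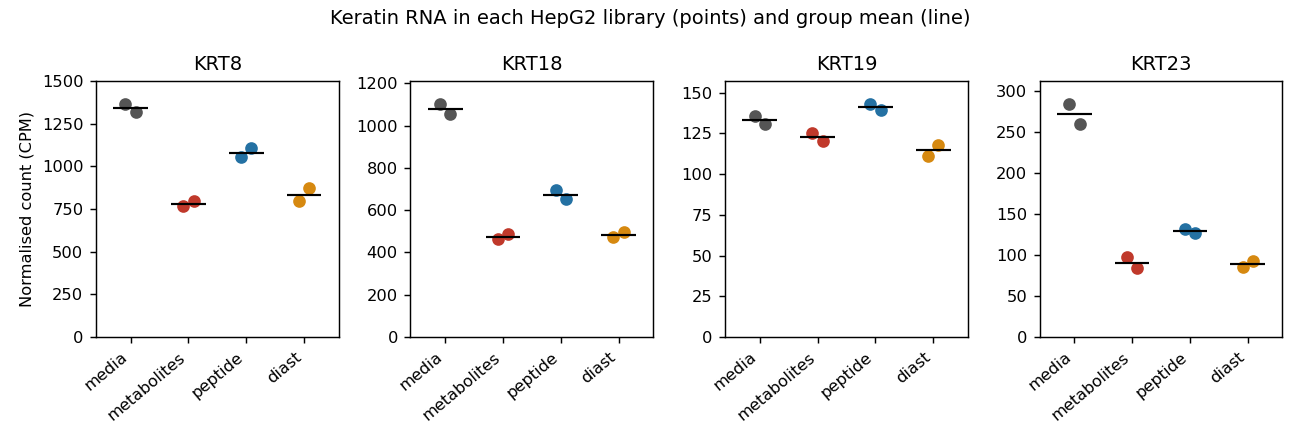
Normalised count (CPM, linear axis from 0) of KRT8, KRT18, KRT19 and KRT23 in each of the 8 libraries, with 1 point per library and a line at the mean of the 2 libraries of a group. KRT8, KRT18 and KRT23 are highest in media and at their next highest in peptide, whereas KRT19 stays between 111.2 and 142.9 CPM in all 8 libraries.

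KRT8, the type II partner in hepatocytes, stood at 1364 and 1320 CPM in media, 766.5 and 797.3 in metabolites, 1054 and 1106 in peptide, and 795.5 and 871.6 in diast. Media, peptide and the lower pair of groups did not overlap, and metabolites and diast did. Such separation of 2 libraries from 2 is common. Both peptide libraries lay above both diast libraries for 29.8% of all tested genes. The share was not counted for the opposite order or for other groups. The standard deviation between the libraries of a group was 2.30% to 6.45% of the mean, whereas counting alone gave an error of 0.598% to 0.854% in a library. In all, 160276 counts lay behind these values.

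KRT18, the type I partner of KRT8, stood at 1101 and 1054 CPM in media, 461.1 and 488.3 in metabolites, 694.1 and 651.1 in peptide, and 471.5 and 494.9 in diast. The order of the groups was that of KRT8, and again metabolites and diast overlapped while the other neighbours did not. The limit given for KRT8 on such separation applies here too. Both KRT8 and KRT18 had expected counts that were not whole in 8 of 8 libraries, so some of their reads were divided with other entries. KRT7, KRT19, KRT20 and KRT23 had whole counts in every library. Genes such as KRT8 and KRT18 have processed pseudogenes of like sequence, so the levels of this pair carry an uncertainty from read assignment that was not tested.

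KRT23, the type I keratin known for induction by deacetylase inhibitors, stood at 283.5 and 259.8 CPM in media, 96.83 and 83.94 in metabolites, 132.1 and 126.4 in peptide, and 85.25 and 92.0 in diast. It spanned the widest relative range of the 4 tested keratins, from 83.94 to 283.5 CPM. Its metabolites libraries differed from each other most, with a standard deviation of 10.1% of the mean.

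KRT19, the smallest keratin, which lacks most of the tail domain, stood at 135.8 and 130.5 CPM in media, 125.2 and 120.5 in metabolites, 142.9 and 139.5 in peptide, and 111.2 and 118.2 in diast. By mean, peptide, not media, was its highest group, and diast was its lowest. No neighbouring groups overlapped, but none of these neighbouring differences was called. How many of all tested genes separate in the same way between these neighbours was not counted. The edgeR adjusted p was 0.265 for peptide against media, 0.127 for metabolites against media and 0.297 for diast against metabolites. The gap between metabolites and diast, 8.10 CPM, was smaller than their summed standard deviations of 8.25 CPM.

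KRT7, the type II keratin of bile duct cells, had 6 counts in all 8 libraries together, 2 in media replicate 1 and 4 in peptide replicate 1. KRT20 had 5 counts, 1 in metabolites replicate 1, 3 in diast replicate 1 and 1 in diast replicate 2. A library with 0 counts allows up to 3 counts, which is 0.118 to 0.174 CPM by library. KRT7 reached at most 0.16 CPM, in peptide replicate 1, where 3 counts are 0.118 CPM, and KRT20 at most 0.15 CPM, in diast replicate 1. With so few counts no fold is given. The limits cover counting error only.

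Cells given metabolites of the solvent-treated community were compared with cells in medium. The labels do not say whether the media group received an equal volume of uncultured bacterial medium. In each comparison with media, the metabolites therefore cannot be told apart from bacterial medium or solvent added with them. Of the 4 tested keratins, 3 fell and none rose, and KRT19 did not pass the threshold. KRT23 fell most, to 0.333 of its level in media (95% interval 0.299 to 0.370), followed by KRT18 at 0.441 (0.404 to 0.481) and KRT8 at 0.583 (0.534 to 0.636). KRT19 stood at 0.922 of its level in media, with an interval of 0.843 to 1.01. In the edgeR quasi-likelihood test with Benjamini-Hochberg adjustment over all 15023 genes, KRT23 had a log2 change of -1.59 ± 0.07 (SE, adjusted p 7.61e-13). KRT18 had one of -1.18 ± 0.06 (SE, edgeR adjusted p 2.85e-12) and KRT8 one of -0.78 ± 0.06 (SE, edgeR adjusted p 1.38e-09). The log2 change of KRT19 was -0.12 ± 0.06 (SE, edgeR adjusted p 0.127), and without media replicate 2 it was -0.18 with an adjusted p of 0.0435.

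The 3 falls stand against a comparison in which 24.9% of all tested genes were called lower and 27.5% higher. In a fit of the 10582 genes with a mean of at least 100 counts, 3140 were called lower and 3297 higher. The median log2 change of the 4 keratins was -0.98, against 0.00 over all genes tested. By size, 1.35% of tested genes had a lower log2 change than KRT23, 2.80% a lower one than KRT18, 7.24% a lower one than KRT8 and 40.9% a lower one than KRT19. KRT23 and KRT18 thus lay near the low end of all genes, and KRT19 lay near the middle.

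Cells given metabolites of the wLwKhShK-treated community were set against cells given metabolites of the solvent-treated community. Compound left over in the preparations was not measured here. In the comparisons with peptide or diast, it cannot be told apart from what the treated community made. All 4 tested keratins rose. KRT23 stood 1.43-fold higher (95% interval 1.28 to 1.59), KRT18 1.42-fold (1.30 to 1.54), KRT8 1.38-fold (1.27 to 1.51) and KRT19 1.15-fold (1.05 to 1.26). The intervals of KRT8, KRT18 and KRT23 overlapped widely in this comparison, unlike those of their falls with metabolites against medium.

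In log2 terms KRT18 rose by 0.50 ± 0.06 (SE, edgeR adjusted p 1.26e-06), KRT8 by 0.47 ± 0.06 (SE, adjusted p 3.59e-06) and KRT23 by 0.52 ± 0.07 (SE, adjusted p 1.28e-05). KRT19 rose by 0.20 ± 0.06 (SE, edgeR adjusted p 0.0134), a call that was lost without metabolites replicate 2 (adjusted p 0.0824) or without peptide replicate 1 (adjusted p 0.084). Of all tested genes 20.4% were called higher and 20.4% lower, and the median log2 change was 0.48 for the 4 keratins and 0.00 for all genes. Between 88.0% and 90.1% of tested genes had a lower log2 change than KRT8, KRT18 or KRT23, and 69.4% a lower one than KRT19.

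Metabolites of the diast-treated community gave no called keratin against those of the solvent-treated one, at an edgeR adjusted p of 0.297 to 0.827. None of the 4 had an unadjusted p below 0.131, and DESeq2 called none of them either. The estimated ratios were 1.07 for KRT8 (95% interval 0.977 to 1.16), 1.02 for KRT18 (0.934 to 1.11), 0.98 for KRT23 (0.878 to 1.09) and 0.933 for KRT19 (0.852 to 1.02). All 4 upper ends lie below the lower ends of the rises with the peptide-treated community. Those lower ends were 1.27 for KRT8, 1.30 for KRT18, 1.28 for KRT23 and 1.05 for KRT19. Both comparisons use the same metabolites libraries, so these intervals are not independent. In this comparison 10.4% of tested genes were called higher and 10.7% lower.

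The labels set the peptide and its diastereomer against each other as active and control compound, and both metabolite preparations were used at 1:32 for 48 h. This is 1 pair of compounds, compared directly in the same fit. All 4 tested keratins were higher with the peptide-treated community than with the diast-treated one: KRT23 1.46-fold (95% interval 1.31 to 1.62), KRT18 1.39-fold (1.28 to 1.52), KRT8 1.30-fold (1.19 to 1.41) and KRT19 1.23-fold (1.13 to 1.35). For each, both peptide libraries lay above both diast libraries, as they did for 29.8% of all tested genes.

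Log2 differences between peptide and diast were 0.54 ± 0.07 for KRT23 (SE, edgeR adjusted p 3.88e-05), 0.48 ± 0.06 for KRT18 (SE, adjusted p 1.57e-05), 0.37 ± 0.06 for KRT8 (SE, adjusted p 0.000242) and 0.30 ± 0.06 for KRT19 (SE, adjusted p 0.00233). Of all tested genes 8.56% were called higher in this comparison and 9.19% lower. In a fit of the 10582 genes with a mean of at least 100 counts, 1116 were called higher and 1516 lower. The median log2 difference was 0.43 for the 4 keratins against -0.01 for all genes. KRT23 exceeded 96.3% of tested genes, KRT18 95.3%, KRT8 92.2% and KRT19 88.1%. Without diast replicate 1 the difference of KRT19 was 0.27 with an adjusted p of 0.0517.

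**Figure D2:**
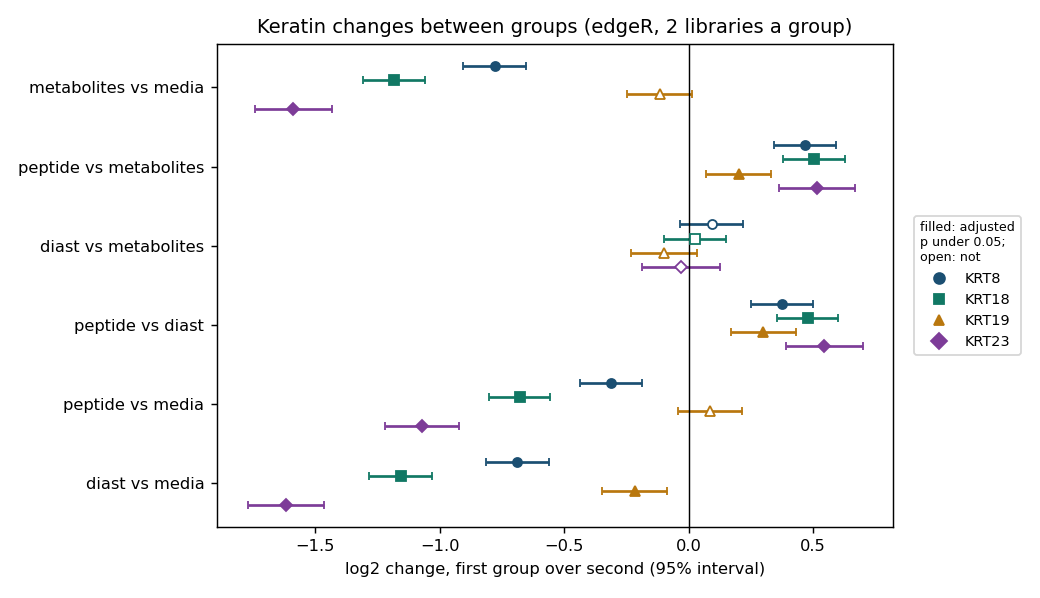
Log2 change of KRT8, KRT18, KRT19 and KRT23 (x axis, first group over second) in the 6 comparisons between groups (y axis), from the edgeR fit over 8 libraries. Bars are 95% intervals, filled symbols have an adjusted p under 0.05 and open symbols do not, and the diast against metabolites comparison holds 4 open symbols near 0.

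Against medium, the peptide-community metabolites left KRT8, KRT18 and KRT23 lower, and KRT19 close to its level in medium. KRT8 stood at 0.805 of its level in media (95% interval 0.738 to 0.877), KRT18 at 0.625 (0.573 to 0.681) and KRT23 at 0.476 (0.429 to 0.528). KRT19 stood at 1.06, with an interval of 0.970 to 1.16 and an edgeR adjusted p of 0.265. The largest edgeR adjusted p of the 3 that were lower was 0.000161, for KRT8. Here 24.5% of all tested genes were called lower and 28.3% higher.

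With diast-community metabolites all 4 tested keratins were lower than in medium, where 24.5% of all tested genes were called lower and 28.2% higher. KRT23 stood at 0.326 of its level in media (95% interval 0.293 to 0.363), KRT18 at 0.449 (0.411 to 0.489), KRT8 at 0.621 (0.569 to 0.677) and KRT19 at 0.861 (0.786 to 0.943). The adjusted p of KRT19 was 0.00651 in the edgeR fit and 0.0601 without diast replicate 1. These comparisons share the media libraries with each other, so their values for a keratin are not independent.

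The keratins did not keep constant proportions to each other, as count ratios within a library show. Such a ratio does not depend on library size or scaling. With 2 libraries against 2, an exact permutation test cannot go below a two-sided p of 0.333, so the ratios are given as a description. KRT8 over KRT18 was 1.239 and 1.253 in the media libraries and lay between 1.519 and 1.761 in the 6 libraries with metabolites. The type II member of the hepatocyte pair thus held a larger part of the pair's counts in all 6 metabolite-treated libraries than in either media library.

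KRT18 over KRT19 was 8.073 and 8.104 in media, 3.684 and 4.053 in metabolites, 4.667 and 4.858 in peptide, and 4.188 and 4.240 in diast. No metabolite-treated library came near the media libraries in this ratio, and the peptide libraries were the closest. KRT19 over KRT23 was 0.479 and 0.502 in media, 1.293 and 1.435 in metabolites, 1.081 and 1.104 in peptide, and 1.285 and 1.304 in diast. This ratio was thus higher in all 6 libraries with metabolites than in either media library.

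KRT18 over KRT23 was 3.882 and 4.055 in media and 4.762 to 5.817 in the 6 others. Among these, the metabolites libraries, at 4.762 and 5.817, spanned both the peptide libraries, at 5.153 and 5.254, and the diast libraries, at 5.379 and 5.530, which did not overlap each other. Of all keratin counts, KRT19 made up 4.71% and 4.72% in media and 6.90% to 8.63% in the libraries with metabolites, and KRT23 9.40% and 9.83% in media and 5.63% to 6.68% in the others.

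**Figure D3:**
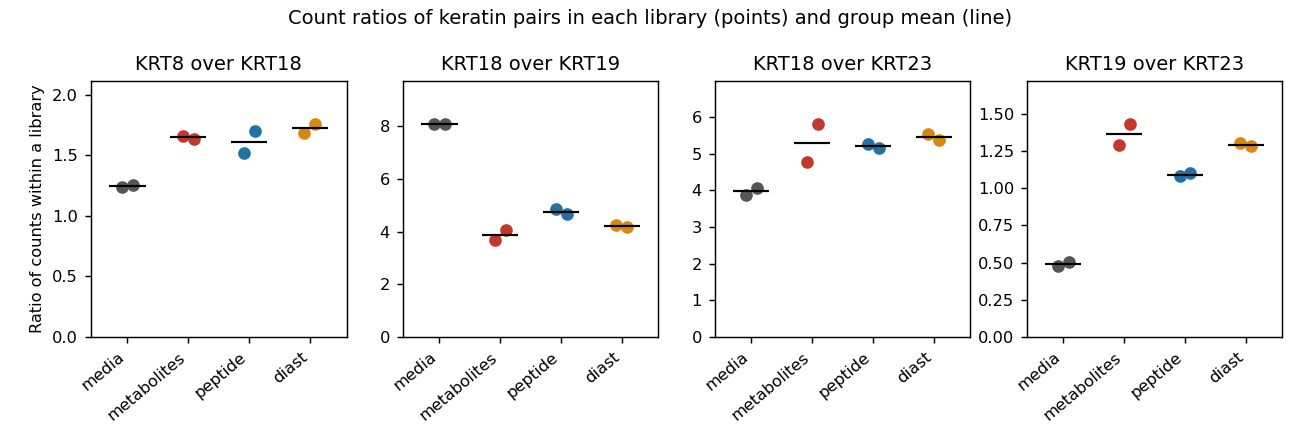
Ratio of the counts of 2 keratins within each library (linear axes from 0), with 1 point per library and a line at the mean of the 2 libraries of a group. The media libraries stand apart from the 6 others in all 4 ratios, for example at 1.239 and 1.253 for KRT8 over KRT18 against 1.519 to 1.761.

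Likeness between genes was measured as the root mean square (RMS) difference of their mean-centred log2 CPM over the 8 libraries. The profiles were not scaled, so the value depends on the size of the changes as well as on their direction. Genes that hardly change also score as alike. It is a description over 4 groups of 2 libraries. KRT18 and KRT8 differed by an RMS of 0.187, KRT18 and KRT23 by 0.198, and KRT19 and KRT23, the most unlike pair, by 0.594. Seen from KRT23, KRT18 ranked 22 among the 15022 other tested genes and KRT8 ranked 430. Seen from KRT18, KRT8 ranked 139 and KRT23 ranked 177, but seen from KRT8, KRT18 ranked 885. By this measure KRT8 was nearer to KRT19 (RMS 0.245, rank 2205) than to KRT23 (RMS 0.373, rank 6102).

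Each tested keratin had other genes with a more like profile than any keratin. The 3 nearest genes lay at an RMS of 0.0398 to 0.0507 from KRT8, 0.0776 to 0.0806 from KRT18, 0.0262 to 0.0361 from KRT19 and 0.101 to 0.115 from KRT23. The files do not pair their IDs with names. The nearest to KRT8 was ENSG00000274523.4, whose log2 change was -0.83 with metabolites against medium and 0.32 with peptide against diast. The nearest to KRT23 was ENSG00000115758.12, with log2 changes of -1.51 and 0.36 in the same comparisons.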

How the data were processed

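RNA-seq values were expected counts per gene, deposited by the authors without normalization. The submitters' processing notes name hg38, RSEM 1.2.31, STAR 2.5.1b and fastp 0.24.0. The gene annotation is not given in the sources used here, and no batch is given for these libraries. Entries with Ensembl IDs were kept (58230), and 649 numeric and 97 spike-in entries were left out. Counts were rounded, as 8.06% were not whole. edgeR 4.0.16 in R 4.3.3 was used with its default expression filter, TMM factors and 1 robust quasi-likelihood fit over 8 libraries with group as the only term. Benjamini-Hochberg adjustment ran over 15023 genes per comparison, with a threshold of 0.05. The SE is the absolute log2 change divided by the square root of F. The fit left 4 residual degrees of freedom, whereas the tests and intervals of the tested keratins used 19.75 to 19.77. The further ones come from variance information shared over the tested genes. RMS profiles used log2 CPM with a prior count of 2. In a test on simulated data for metabolites against media, over 14606 genes, 66.3% of 2-fold and 85.6% of 4-fold changes were recovered. These were 65 of 98 and 83 of 97 genes, and 16 unchanged genes were called as well. The simulation changed 200 genes, whereas 7869 were called in the real comparison, so these shares may not hold there. Replicates differed by more than counting error, at a chi-square of 3.88 to 13.2 per degree of freedom. The keratins, lists and tests were chosen with earlier results of these data known. All 6 keratins were named in every comparison, and the 3 nearest genes of each tested keratin were sought by RMS. The lists of other keratins, junction, filament and marker genes, and promoter motifs, were not analysed here, because no human gene names or sequences were at hand. Alternatives covered normalization, DESeq2 1.42.0, filters, rounding, the replicate block, the libraries fitted and each library left out.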

Additional observations from a re-analysis of the deposited data

How the results depend on the processing

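Over 16 alternatives per keratin and comparison, 374 of the 384 values kept their direction and their side of the threshold, and the counts of keratins called stayed within 1.5 times. The calls of KRT8, KRT18 and KRT23 held in all 16 in the 5 comparisons that called them. KRT19 lost its call in 4 values and gained one, as given above. Small uncalled values changed sign between diast and metabolites: KRT18, at 0.026, read -0.011 by library size alone and -0.027 to 0.068 with 1 library left out, below 0 without metabolites replicate 1 or diast replicate 2. KRT23, at -0.030, read -0.129 to 0.065 with 1 library left out, above 0 without metabolites replicate 1 or diast replicate 1. A fit that leaves out a library assumes that the lone library of the group varies like the rest. Over all genes, the 3172 calls between diast and metabolites became 1763 to 1907 without a library of either group, and the 2666 between peptide and diast became 1037 without peptide replicate 1, 1143 without diast replicate 1 and 1304 without diast replicate 2. Deviations of libraries with the same replicate number correlated at -0.03 to 0.07. With 2 libraries a group, this cannot decide whether the numbers pair them. A replicate block left the keratin calls at 3 lower for metabolites against media and 4 higher for peptide against diast. It raised the calls over all genes in each of the 6 comparisons, from 2666 to 3404 for peptide against diast and from 3172 to 3706 for diast against metabolites. Without a filter, KRT7 and KRT20 were not called (smallest adjusted p 0.421). A minimum mean of 100 counts was chosen after seeing the data. The planned addition of pseudogene counts to their parent keratins was not run, because the tables give no names. KRT7 and KRT20 had too few counts for a test, whereas the other 4 had at least 1445 counts in every library. No alternative set the libraries to equal depth.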
